A study of Mus musculus with 2 samples.

Results

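Non-cycling alveolar macrophages of the newborn mouse lung are described here from 1 single-cell library. A cell was counted as one when mitochondrial genes were at most 10% of its total and at least 3 of the 6 genes Plet1, Atp6v0d2, Siglecf, Lpl, Abcg1 and Marco were above 0. At least 2 of the 3 leukocyte genes Tyrobp, Fcer1g and Laptm5 had to be above 0, and the endothelial gene Pecam1 and the collagen gene Col1a2 had to be at 0. At most 2 of the 6 cell cycle genes Top2a, Mki67, Cdk1, Ccnb1, Tpx2 and Cenpf could be above 0. Members were thus chosen by their measured values of these genes. The rule gave 1104 members among the 10660 cells within the mitochondrial limit, out of 11306 cells in all. That share was 10.4%, with an exact Clopper-Pearson 95% interval of 9.78 to 10.95% that covers counting error only.

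The cells had been sorted from the peripheral lung of wild-type mice at postnatal day 3. The other sample, read as bulk RNA, came from sorted PDGFRA+ lung cells of Pdgfra-H2BGFP animals at the same age, in which nuclear green fluorescent protein reports the Pdgfra gene. Each group had 1 sample, and whether animals were pooled is not stated, so no difference was tested between samples. Within the single-cell library the members were set beside cycling alveolar macrophages, interstitial macrophages, classical monocytes and all other cells.

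Alveolar macrophages live on the air side of the alveolus, where they take up surfactant, inhaled particles and dying cells. In mice they arise from fetal monocytes around birth, and their maturation needs GM-CSF from the epithelium and other cells, TGF-beta and the nuclear receptor PPARG. They are long-lived, renew themselves by division, and handle large amounts of lipid through their lysosomes.

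The deposited single-cell values were whole-number UMIs, with cell totals of 3859 to 6899, and were taken as corrected for depth. Of values above 0, 27.7% equalled 1 in the 1000 cells with fewest detected genes, against 74.3% in the 1000 with most. UMIs per cell are therefore not read as raw counts. A level is given as CPM: the UMIs of all cells in a class were added up and expressed per 1000000. A log2 ratio adds 1 CPM to both sides, and a gene was called by size alone where that ratio reached 1 or -1, among genes with at least 20 UMIs over both classes. Members had a median of 2437.5 detected genes, against 3017.5 in the 264 cycling alveolar macrophages, 2432 in the 105 interstitial macrophages, 2130 in the 367 classical monocytes and 1991 in the 9556 other cells. The cycling cells met the same rule but had at least 3 cycle genes above 0, and they made up 19.3% of the 1368 alveolar macrophages (interval 17.2 to 21.5%). Interstitial macrophages were gated on all 3 C1q genes, and monocytes on Ly6c2 and at least 2 of Ccr2, Plac8, F13a1, Ms4a4c and Fn1, both with fewer than 3 alveolar markers.

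The values of the genes of the rule describe how the members were chosen and are no check of the label. Plet1, a surface protein, was above 0 in 99.2% of members (interval 98.5 to 99.6%), against 6.54% of classical monocytes (4.23 to 9.57%), whose gate allowed fewer than 3 of the 6 markers. Lpl, which releases fatty acids from lipoproteins, was above 0 in 97.6% of members, and Abcg1, which exports cholesterol, in 96.9%. Atp6v0d2, a subunit of the proton pump of lysosomes, was above 0 in 85.1%. The scavenger receptor Marco was above 0 in 44.2% and Siglecf, the sialic acid receptor often used to sort these cells, in 36.3%. Per cell, Plet1 ran from 3 UMIs at the 10th percentile over a median of 8 to 15 at the 90th percentile, while Siglecf ran from 0 over 0 to 1. Most members therefore carried the first 4 genes, and the last 2 were found in a minority.

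All 6 markers were above 0 in 180 members, 5 in 448, 4 in 324 and 3 in 152. Just outside the rule, 195 cells met every other condition with 2 markers, and 596 with 1. Genes that the rule did not use differed along that scale. Ear2 was at 1949, 1951, 1935 and 1917 CPM in members with 6, 5, 4 and 3 markers, and at 873 CPM in the cells with 2. Ear10 was at 693, 736, 605 and 601 CPM in the same 4 classes of members, and at 202 CPM with 2 markers. Krt79, a keratin gene, was at 319, 223, 138 and 26.5 CPM, and at 8.10 CPM with 2 markers. Ccl6 was at 4728, 4600, 3995 and 1763 CPM in members with 6, 5, 4 and 3 markers, Fabp1 at 343, 280, 152 and 48.3 CPM, Car4 at 508, 394, 342 and 93.2 CPM, and Chil3 at 706, 848, 639 and 351 CPM. The 3-marker members were thus close to the others in Ear2 and lowest in Krt79, Ccl6, Fabp1, Car4 and Chil3. They also held 1449 CPM of the MHC class II chain Cd74, against 220 CPM in the 6-marker members and 3140 CPM in the cells with 2. The neutrophil gene S100a8 was at 3295 CPM in the 3-marker members, 706 CPM in the 6-marker members and 10583 CPM in the cells with 2. The part of other cell types in these levels was not tested.

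Markers of other cell types were summed over each list. The 15 neutrophil markers summed to 4473 CPM in members and 23879 CPM in all other cells, and the 12 markers of alveolar type 2 cells to 2534 CPM in members and 13718 CPM in the others. Without the 149 members of 3 sub-clusters led by other lineages, described further on, the neutrophil markers summed to 785 CPM, the alveolar type 2 markers to 1118 CPM and the T cell markers to 76.4 CPM in members. The 20 interstitial macrophage markers, which include the 3 C1q genes of that gate, summed to 2863 CPM in members. They summed to 45513 CPM in interstitial macrophages and 2806 CPM in all other cells. The 14 classical monocyte markers include the genes of the monocyte gate, and Chil3, also an alveolar macrophage gene. They summed to 1968 CPM in members, 8982 CPM in classical monocytes and 2118 CPM in all other cells. The contrasts with the gated classes are thus in part set by the gates. The 10 T cell markers summed to 205 CPM and the 9 B cell markers to 79.7 CPM in members. At 0 in members were Siglech, Dnah5, Wt1, Alas2 and Gp1bb, besides Pecam1 and Col1a2, which the rule required at 0.

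The most abundant transcripts of members, leaving out mitochondrial and ribosomal protein genes, were Tmsb4x at 22995 CPM, Actb at 15747 CPM and Fth1 at 12445 CPM. Tmsb4x and Actb belong to the actin cytoskeleton, and Fth1 is the heavy chain of the iron store ferritin. The light chain Ftl1 was at 8877 CPM in members, and at 3533 CPM in all other cells. Lyz2, the lysozyme of macrophages, was at 4690 CPM in members, below the 10757 CPM of interstitial macrophages and the 17007 CPM of classical monocytes. Fth1 and Ftl1 were above 0 in 100% of members.

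Against all other cells, 1236 of 15472 genes were higher by size in alveolar macrophages (7.99%) and 3602 were lower (23.3%), with a median log2 ratio of -0.22. Of 30 further genes listed as alveolar macrophage markers, 26 were higher and 1 lower, with a median of 2.74. The list was drawn up with earlier results of these data known, so its direction is not independent evidence. Spp1, which encodes the secreted protein osteopontin, was at 1683 CPM in members and 164 CPM in the others. The eosinophil-associated ribonucleases Ear2, Ear1 and Ear10 were at 1942, 678 and 673 CPM in members, against 205, 68.4 and 65.6 CPM. Il18, a cytokine processed by inflammasomes, was at 792 CPM in members and 79.9 CPM in the others, and Olr1, a receptor for oxidised lipoprotein, at 420 and 42.3 CPM. The 1 lower gene was the surfactant gene Sftpc, at 1799 CPM in members and 10638 CPM in the others. It is also on the list of alveolar type 2 markers and is no specific marker of alveolar macrophages.

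Among the 12 largest ratios of genes at 50 CPM or more in either class, 4 belonged to genes of the rule, 4 to genes of the list just given, and 3 to ribonucleases of the angiogenin group. Ang2, Ang5 and Ang4 were at 253, 319 and 406 CPM in members, against 20.3, 27.3 and 37.0 CPM in all other cells. The Ear genes are close copies of one another, and so are the Ang genes, so how reads were divided within each group is uncertain. Slc7a2, a transporter of arginine and other basic amino acids, was at 433 CPM in members, 370 CPM in cycling alveolar macrophages, 23.4 CPM in interstitial macrophages, 5.13 CPM in classical monocytes and 41.4 CPM in all other cells. Apart from Col1a2 and Pecam1, which the rule set to 0, the lowest ratios were those of Tagln, Limch1, Hmcn1 and Ogn. Tagln, a gene of smooth muscle, was at 12.5 CPM in members and 513 CPM in the others.

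The other cells still held 783 cells with at least 3 of the 6 markers, of which the 264 cycling ones are a part. They failed on another condition, most often Col1a2 or Pecam1 above 0. Without these 783 cells, an alternative chosen after the data were seen, the log2 ratio became 6.40 for Atp6v0d2, 5.54 for Plet1, 5.31 for Spp1 and 5.03 for Ear10, against 3.58, 3.46, 3.35 and 3.34 with them. The median of the 30 further genes became 3.66. For Atp6v0d2 and Plet1, genes of the rule, a larger ratio follows from leaving those cells out.

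**Figure D1:**
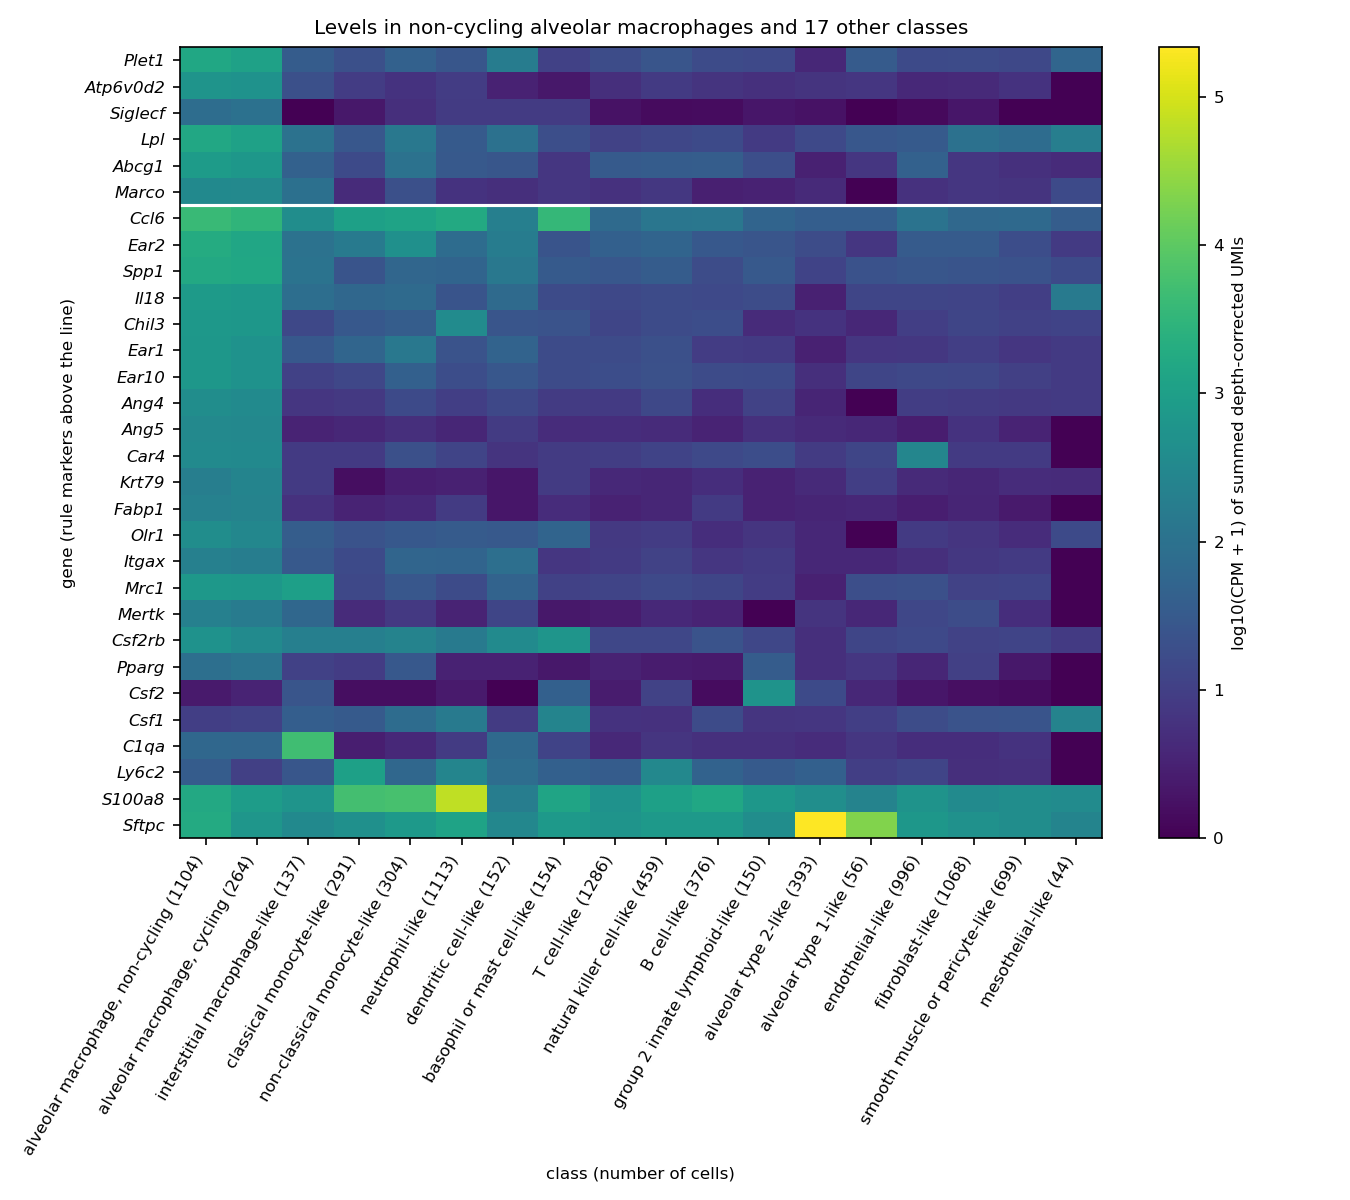
Heat map of levels, as log10(CPM + 1) of summed depth-corrected UMIs, for 30 genes (rows) in 18 classes of cells (columns, with cell numbers). Cells with at least 3 rule markers were kept out of all classes other than alveolar macrophage, so the contrast is in part set by the rule. The rule markers above the white line and genes such as Ear1, Ear10, Ang4, Ang5 and Fabp1 are bright in the 2 alveolar macrophage columns at the left, Car4 is also bright in endothelial-like cells, and Csf2 is brightest in group 2 innate lymphoid-like cells.

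To place single genes, other cells were given a class from their marker genes, which yielded 18 classes with the 2 kinds of alveolar macrophage. Ear2 reached 1942 CPM in members and 1407 CPM in cycling alveolar macrophages, and the next class, non-classical monocyte-like cells, was at 476 CPM. Il18 was at 792 and 688 CPM in members and cycling alveolar macrophages, and next at 152 CPM in mesothelial-like cells. Car4, a carbonic anhydrase anchored to the cell surface, was at 358 CPM in members, 338 CPM in cycling cells and 285 CPM in endothelial-like cells. Ear2 is itself on the non-classical monocyte marker list and Car4 on the endothelial list. Their levels in those 2 classes thus follow in part from the scoring. Fabp1, a fatty acid binding protein best known from liver, was at 222 and 238 CPM in the 2 kinds of alveolar macrophage and at most 7.60 CPM in any other class. These classes rest on marker scores per cell, and 1614 cells were left without a class. Cells with at least 3 rule markers were kept out of all classes other than alveolar macrophage. Low levels there of the rule markers, and of genes that go with them such as Fabp1, thus follow in part from the rule.

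Signals that drive alveolar macrophage development were read from their receptors. Csf2rb, the shared signalling chain of the receptors for GM-CSF, IL-3 and IL-5, was at 516 CPM in members, against 361 CPM in cycling alveolar macrophages, 233 CPM in interstitial macrophages, 190 CPM in classical monocytes and 102 CPM in all other cells. It was above 0 in 89.5% of members and 23.4% of the others. Csf2rb2, the mouse IL-3 specific copy of that chain, was at 101 CPM in members and 18.3 CPM in the others, and because the pair are close copies the split between them is uncertain. The ligand-binding chain Csf2ra was at 171 CPM in members, below interstitial macrophages at 247 CPM and classical monocytes at 258 CPM. Pparg was at 89.5 CPM in members and 114 CPM in cycling cells, but at 7.81 CPM in interstitial macrophages, 8.39 CPM in monocytes and 13.1 CPM in all other cells. Its partner Rxra was at 51.5 CPM in members and 19.4 CPM in the others.

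The TGF-beta receptor genes were also present in members. Tgfbr1 was at 135 CPM and Tgfbr2 at 155 CPM, against 41.9 and 88.5 CPM in all other cells. Tgfb1 itself was at 384 CPM in members, close to the 411 CPM of interstitial macrophages and the 367 CPM of monocytes. Smad3, which carries the TGF-beta signal to the nucleus, was at 4.63 CPM in members, against 21.9 CPM in interstitial macrophages and 15.4 CPM in the others. Itgb6 was at 0.15 CPM in members and Itgb8 was listed at 0, and both encode integrin chains that activate TGF-beta. The targets of GM-CSF signalling Cish and Socs2 were at 50.1 and 90.1 CPM in members, and at 21.95 and 108 CPM in the others. Of this list of 20 genes, 8 were higher and 3 lower over all other cells, with a median of 0.20. The shares of all genes tested were 7.99% higher and 23.3% lower.

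The source of GM-CSF was looked up after the values were seen. Csf2 was at 1.4 CPM in members, against 544 CPM in group 2 innate lymphoid-like cells, 41.6 CPM in basophil or mast cell-like cells, 24.2 CPM in interstitial macrophage-like cells and 14.7 CPM in alveolar type 2-like cells. The ligand of the other macrophage receptor, Csf1, was at 8.64 CPM in members and 43.2 CPM in all other cells, with 250 CPM in basophil or mast cell-like and 239 CPM in mesothelial-like cells. Its receptor Csf1r was at 119 CPM in members, against 970 CPM in interstitial macrophages and 315 CPM in monocytes.

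Among 30 transcription factor genes, 11 were higher and 5 lower in members than in all other cells, with a median of 0.45. The shares of all genes tested were 7.99% higher and 23.3% lower. Tfec, of the family of lysosome regulators that holds Mitf and Tfeb, was at 121 CPM in members, 45.3 CPM in interstitial macrophages, 14.5 CPM in monocytes and 13.6 CPM in the others. Bhlhe41, which in mice supports alveolar macrophage identity and self-renewal, was at 60.3 CPM in members, 12.5 CPM in interstitial macrophages and 1.40 CPM in monocytes. Egr2, an early response factor linked in mice to alveolar macrophage identity, was at 103, 49.98 and 1.87 CPM in members, interstitial macrophages and monocytes. Maf, which restrains macrophage division in mice, was at 13.1 CPM in members and 529 CPM in interstitial macrophages.

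Many lysosomal genes were higher in members than in the other cells. Of 39 lysosomal enzymes and membrane proteins, 23 were higher and 1 lower over all other cells, with a median log2 ratio of 1.36. The shares of all genes tested were 7.99% higher and 23.3% lower. Ctsd, an aspartic protease, was at 3374 CPM in members, 2292 CPM in cycling alveolar macrophages, 1292 CPM in interstitial macrophages, 311 CPM in monocytes and 557 CPM in the others. Psap, the precursor of saposins that help break down sphingolipids, was at 3584 CPM in members, 2062 CPM in interstitial macrophages and 2315 CPM in monocytes. Ctsk, a collagen-cleaving protease of osteoclasts, was at 131 CPM in members, 3.12 CPM in interstitial macrophages and 5.13 CPM in monocytes. The 1 lower gene was Lyz1, a lysozyme gene also on the list of alveolar type 2 markers, at 170 CPM in members and 982 CPM in the others. Over interstitial macrophages, 14.3% of 10535 genes were higher by size and 9.74% lower, and of the lysosomal genes 6 of 39 were higher and 10 lower, with a median of -0.38.

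The vacuolar ATPase pumps protons into lysosomes. Of its 18 subunit and accessory genes other than Atp6v0d2, 9 were higher and 0 lower over all other cells, with a median of 1.07. Over interstitial macrophages 3 of the 18 were higher and 0 lower, with a median of 0.53. Of all genes tested, 7.99% were higher over all other cells and 14.3% over interstitial macrophages, so the count of 3 was near the share of all genes. Atp6v1b2, of the catalytic head, was at 310 CPM in members, 275 CPM in cycling cells, 116 CPM in interstitial macrophages, 102 CPM in monocytes and 67.1 CPM in the others. Atp6v0a1, of the membrane part, was at 135 CPM in members, 79.7 CPM in interstitial macrophages and 22.4 CPM in monocytes. Atp6v0d2, the isoform in the rule, was at 565 CPM in members, and its widely made partner isoform Atp6v0d1 at 294 CPM in members and 115 CPM in the others.

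**Figure D2:**
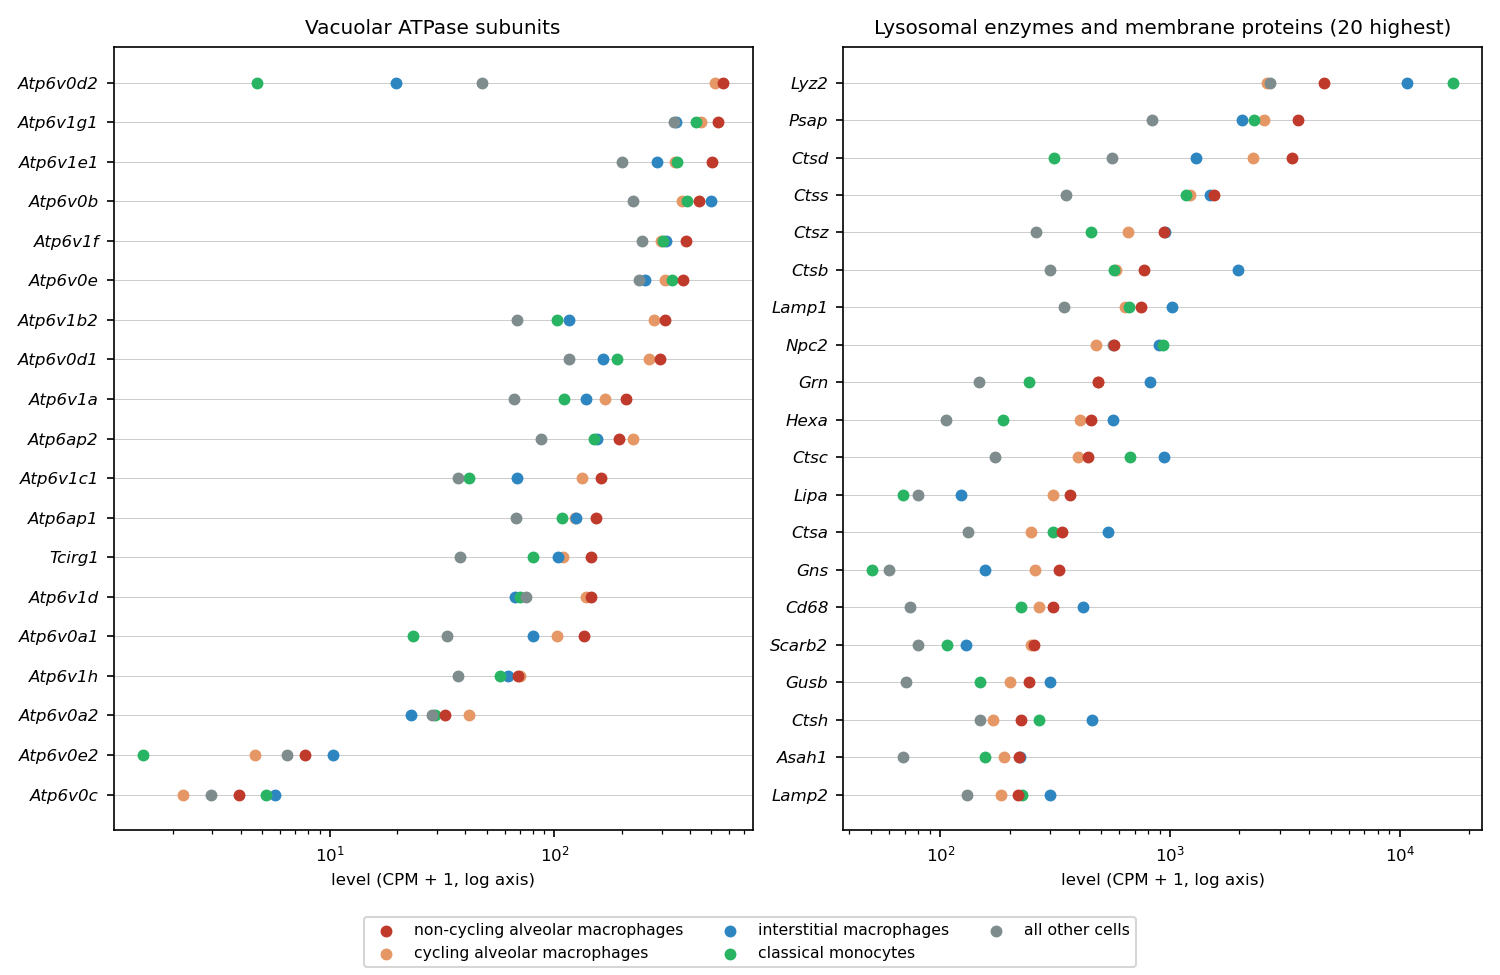
Levels (CPM + 1, log axis) of vacuolar ATPase genes at left and of the most abundant lysosomal genes at right, each row a gene and each dot a class of cells. Members (red) lie right of all other cells (grey) for Ctsd, at 3374 and 557 CPM, and for Atp6v1b2, while interstitial macrophages (blue) lie furthest right for several lysosomal genes.

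The promoters of the lysosomal and vacuolar ATPase genes were searched for TCACGTG and its reverse complement CACGTGA on both strands, 7 letters at the core of the element that the lysosome regulator TFEB binds. The windows run from 250 bases before to 50 bases after each gene start, as given by RefSeq for GRCm38.p6. The letters were found in 4.29% of 27025 genes, in 8 of the 31 lysosomal genes with an entry (25.8%) and in 4 of 13 vacuolar ATPase genes (30.8%). They were in 0 of the 3 rule markers with an entry, Plet1, Siglecf and Marco, and in 1 of 26 of the further alveolar macrophage genes (3.85%). A match is a run of letters and not a shown binding site. The 3 windows below are shown as examples that hold the motif, which is in capitals. TCACGTGA holds the motif on both strands, as overlapping matches. They are the minus strand of chr7:142387778-142388077 for Ctsd, the plus strand of chr2:164833523-164833822 for the protease Ctsa and the minus strand of chr16:44139210-44139509 for Atp6v1a.
Ctsd: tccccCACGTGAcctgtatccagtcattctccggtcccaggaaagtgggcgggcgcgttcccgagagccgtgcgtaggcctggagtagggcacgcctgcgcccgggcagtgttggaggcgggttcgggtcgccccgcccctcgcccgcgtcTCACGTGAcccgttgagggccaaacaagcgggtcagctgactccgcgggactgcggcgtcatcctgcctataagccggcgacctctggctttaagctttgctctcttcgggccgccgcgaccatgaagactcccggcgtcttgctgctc
Ctsa: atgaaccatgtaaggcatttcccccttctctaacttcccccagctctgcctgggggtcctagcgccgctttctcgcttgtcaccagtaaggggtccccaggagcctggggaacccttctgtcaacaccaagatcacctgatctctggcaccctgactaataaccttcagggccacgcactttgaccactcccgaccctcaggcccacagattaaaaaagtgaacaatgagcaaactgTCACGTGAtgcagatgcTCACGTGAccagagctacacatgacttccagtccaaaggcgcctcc
Atp6v1a: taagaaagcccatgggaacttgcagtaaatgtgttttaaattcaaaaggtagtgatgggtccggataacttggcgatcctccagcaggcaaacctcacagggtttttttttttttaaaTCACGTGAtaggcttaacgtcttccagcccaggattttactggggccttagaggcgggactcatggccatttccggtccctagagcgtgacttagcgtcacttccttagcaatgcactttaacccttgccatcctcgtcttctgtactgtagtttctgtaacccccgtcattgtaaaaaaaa
The windows of Ctsd and Ctsa each hold 2 separate sites and that of Atp6v1a holds 1. Ctsa has a second window in the table, at chr2:164832622-164832921, with 0 matches. Ctsa was at 336 CPM in members, 537 CPM in interstitial macrophages and 130 CPM in all other cells. Atp6v1a was at 206 CPM in members and 65.1 CPM in all other cells, and its log2 ratio was 1.65.

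Fatty acid genes were called higher more often than lower over all other cells, interstitial macrophages and classical monocytes, but not over cycling alveolar macrophages. Of 36 genes of fatty acid uptake, storage and oxidation, 16 were higher and 2 lower over all other cells, with a median of 0.85. Over interstitial macrophages 17 of 34 tested were higher and 0 lower, with a median of 1.01, and over classical monocytes 21 of 34 were higher and 2 lower, with a median of 1.48. The monocyte comparison called 22.7% of 10768 genes higher and 8.35% lower. The shares of all genes were 7.99% and 23.3% over all other cells, and 14.3% and 9.74% over interstitial macrophages. Over cycling alveolar macrophages 0 of 35 fatty acid genes were higher and 0 lower. Plin2, the coat protein of lipid droplets, was at 1302 CPM in members, 467 CPM in interstitial macrophages, 393 CPM in monocytes and 265 CPM in the others. Angptl4, a PPAR target that inhibits lipoprotein lipase, was at 233 CPM in members, 17.2 CPM in interstitial macrophages and 6.53 CPM in monocytes. Cidec, which fuses lipid droplets, was at 74.7 CPM in members and listed at 0 in both interstitial macrophages and monocytes. Scd1, which makes monounsaturated fatty acids, was at 7.10 CPM in members and 30.9 CPM in all other cells.

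For cholesterol, 13 of 29 tested genes were higher and 1 lower over all other cells, with a median of 0.82. Over interstitial macrophages 8 of 27 were higher and 5 lower, with a median of 0.52, and over monocytes 10 of 27 were higher and 1 lower, with a median of 0.82. Shares of all genes higher and lower were 7.99% and 23.3% over all other cells. They were 14.3% and 9.74% over interstitial macrophages, and 22.7% and 8.35% over monocytes. Nceh1, which frees cholesterol from its stored esters, was at 426 CPM in members, 119 CPM in interstitial macrophages and 67.6 CPM in monocytes. Lipa, the acid lipase of lysosomes, was at 364, 122 and 67.6 CPM in the same classes. Apoe, an apolipoprotein made by tissue macrophages, had the opposite order, at 1048 CPM in members and 22127 CPM in interstitial macrophages. Apoc1 was likewise at 139 CPM in members and 437 CPM in interstitial macrophages. Vldlr, a receptor for triglyceride-rich particles, was at 1.85 CPM in members and 33.3 CPM in the others.

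Of 30 scavenger and phagocytic receptor genes, 15 were higher and 7 lower over all other cells, with a median of 0.99. Over interstitial macrophages the balance was the other way, with 6 of 28 higher, 12 lower and a median of -0.37. All genes tested were higher in 7.99% and lower in 23.3% over all other cells, so the 7 lower were near that share. Over interstitial macrophages the shares were 14.3% and 9.74%. Mertk and Axl, receptors that recognise dying cells through bridging ligands, were at 214 and 401 CPM in members, 51.5 and 197 CPM in interstitial macrophages, and 4.66 and 16.8 CPM in monocytes. Their ligand Gas6 was at 5.71 CPM in members and 216 CPM in interstitial macrophages. The mannose receptor Mrc1 was at 708 CPM in members and 886 CPM in interstitial macrophages. Timd4, which binds phosphatidylserine, was at 1.39 CPM in members and 200 CPM in interstitial macrophages. Sirpa, which receives the inhibitory signal of CD47, was at 1095 CPM in members, 392 CPM in interstitial macrophages and 295 CPM in monocytes. Of 20 tested pattern receptor genes, 9 were higher and 0 lower over all other cells, with a median of 0.73, beside the same shares of 7.99% and 23.3%. Tlr2, which senses bacterial lipoproteins, was at 525 CPM in members and 139 CPM in the others, and Tlr4 at 48.9 and 10.0 CPM.

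Of 20 genes of iron and haem handling, 8 were higher and 4 lower over all other cells, with a median of 0.21. Hmox1, which breaks down haem, was at 368 CPM in members, 495 CPM in interstitial macrophages and 123 CPM in monocytes. The iron exporter Slc40a1 was at 4.47 CPM in members and 172 CPM in interstitial macrophages. Of 20 genes of oxidant defence, 8 were higher and 1 lower, with a median of 0.62, and Gsto1, a glutathione transferase, was at 147 CPM in members and 29.9 CPM in the others. Of the glycolysis genes, 0 of 20 were higher and 1 lower over all other cells, with a median of 0.22.

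**Figure D3:**
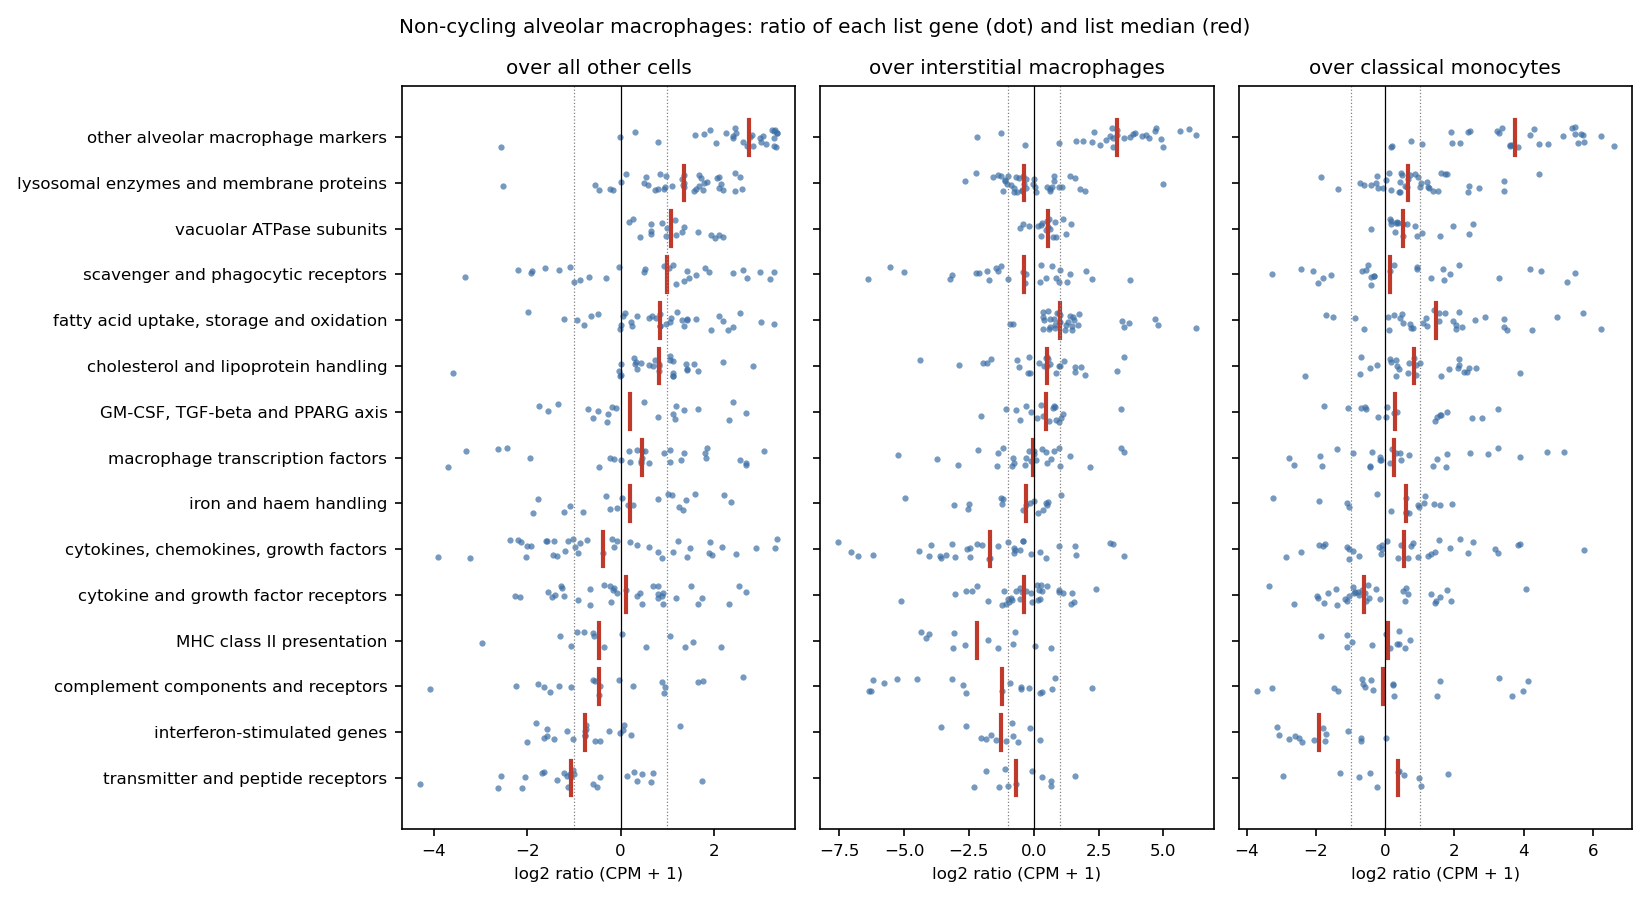
Log2 ratios (CPM + 1) of non-cycling alveolar macrophages over all other cells, interstitial macrophages and classical monocytes, with 1 dot per gene of each list, the list median in red and dotted lines at -1 and 1. The further alveolar macrophage markers lie furthest right in all 3 panels, with medians of 2.74, 3.21 and 3.75, and MHC class II genes lie left of 0 over interstitial macrophages, with a median of -2.20.

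Set beside interstitial macrophages, 1506 of 10535 genes were higher by size in alveolar macrophages and 1026 lower, with a median of 0.15. Ang2 was at 253 CPM in members and listed at 0 in interstitial macrophages. Phgdh, the first enzyme of serine synthesis, was at 263 CPM in members, 354 CPM in cycling alveolar macrophages and 3.12 CPM in interstitial macrophages. Krt19, a keratin, was at 357 CPM in members and 4.69 CPM in interstitial macrophages. Flvcr2, a transporter of choline in mice, was at 71.9 CPM in members and listed at 0 in interstitial macrophages. Interstitial macrophages were 105 cells, so a gene at 3.12 CPM there rests on about 2 corrected UMIs.

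On the interstitial side stood chemokines, complement and antigen presentation. Ccl12 and Ccl7, which attract monocytes, were at 1.54 and 3.86 CPM in members, against 470 and 637 CPM in interstitial macrophages, and Ccl2 was at 14.8 and 1151 CPM. Fcna, a lectin of the complement system, was at 4.16 CPM in members and 917 CPM in interstitial macrophages, and Folr2, a folate receptor of tissue macrophages, at 0.46 and 131 CPM. C1qa, at 59.2 CPM in members and 4951 CPM in interstitial macrophages, was used to gate the interstitial cells and is given as a description. Of 12 tested MHC class II presentation genes, 0 were higher and 8 lower, with a median of -2.20. Cd74 was at 389 CPM in members and 6870 CPM in interstitial macrophages, and H2-Ab1 at 112 and 2280 CPM. Of 36 tested cytokine and growth factor genes, 5 were higher and 20 lower, with a median of -1.70. Igf1 was at 4.32 CPM in members and 112 CPM in interstitial macrophages. Of 19 complement genes, 1 was higher and 10 lower, with a median of -1.24. The shares of all genes over interstitial macrophages were 14.3% higher and 9.74% lower.

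Set beside classical monocytes, 2442 of 10768 genes were higher by size in alveolar macrophages and 899 lower, with a median of 0.37. Gdf15, a stress-induced cytokine of the TGF-beta family, was at 108 CPM in members and 0.47 CPM in monocytes, and Krt79 at 188 and 0.93 CPM. Ifitm3 and Ifitm6, membrane proteins of antiviral defence, were at 112 and 45.7 CPM in members, against 2662 and 881 CPM in monocytes. Hp, which binds free haemoglobin, was at 57.2 CPM in members and 941 CPM in monocytes, and the matrix protein gene Thbs1 at 99.03 and 1607 CPM. Ly6c2, Plac8, F13a1 and Ms4a4c were also lower but had gated the monocytes. Of 14 tested interferon-stimulated genes, 0 were higher and 11 lower, with a median of -1.92. Irf7, which amplifies interferon responses, was at 10.0 CPM in members, 15.6 CPM in interstitial macrophages and 91.9 CPM in monocytes, and Isg15 at 8.64, 57.8 and 57.4 CPM.

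Among secreted signals, some were high in members. Ccl6, a chemokine of the CC family, was at 4066 CPM in members, 531 CPM in interstitial macrophages, 912 CPM in monocytes and 736 CPM in all other cells, and was above 0 in 99.1% of members. Per cell it ran from 4 UMIs at the 10th percentile over a median of 17 to 54 at the 90th. Spp1 ran from 1 over 7 to 22.7 UMIs, and Il18 from 2 over 4.5 to 8. Il1a, an alarmin of the interleukin-1 family, was at 232 CPM in members, 309 CPM in interstitial macrophages and 23.3 CPM in monocytes, and was above 0 in 42.7% of members. Of 41 tested cytokine and growth factor genes, 12 were higher and 16 lower over all other cells, with a median of -0.37. The shares of all genes tested were 7.99% higher and 23.3% lower.

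As the study concerns autonomic nerves, receptors for their transmitters and peptides were looked up. Of 37 genes on the list, 28 were in the table and 25 were tested over all other cells, with 1 higher, 14 lower and a median of -1.05. The shares of all genes tested were 7.99% higher and 23.3% lower. Ramp1, a partner of the CGRP receptor, was at 96.1 CPM in members and 70.0 CPM in the others, while the receptor itself, Calcrl, was at 16.04 and 99.7 CPM. The beta-adrenergic receptor gene Adrb1 was at 10.6 CPM in members and 14.8 CPM in the others. The ATP receptor gene P2rx7 was at 17.6 CPM in members and 10.8 CPM in the others. The 1 higher gene was P2ry12, a receptor for ADP, at 10.5 CPM in members, 40.6 CPM in interstitial macrophages and 2.45 CPM in the others. Of the muscarinic receptors, Chrm3 was at 0.62 CPM in members and Chrm1 and Chrm2 were listed at 0. Many of these levels rest on few UMIs.

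Within the members, Leiden clustering gave 8 groups of 340, 207, 173, 123, 112, 89, 52 and 8 cells. The clusters were formed on these same genes, so their leading genes describe them and were not tested. Sub-cluster 1 (30.8% of members) had the fewest detected genes of the first 7, a median of 2201. Its leading gene Scgb1a1, a product of airway club cells, was at 1004 CPM, but 1740 of the 2252 Scgb1a1 UMIs of all members lay in 1 cell. Sparc and Col3a1, matrix genes of mesenchymal cells, were also among its leading genes, at 77.3 and 56.8 CPM in it, against 37.97 and 30.6 CPM in the other members. Their source was not tested. Ang2 was at 354 CPM in it and 211 CPM in the other members, and above 0 in 75.6% and 60.9% of cells.

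Sub-cluster 2 (18.8%) was led by lipid and lysosome genes. Gpnmb, a membrane glycoprotein of lipid-laden macrophages, was above 0 in 36.7% of its cells (interval 30.1 to 43.7%) and 4.24% of the other members (3.02 to 5.77%). These intervals cover counting error only and are no test, because the clusters were formed on these same genes. The fatty acid translocase Cd36 was at 659 CPM in it and 148 CPM in the other members, Fabp5 at 1561 and 433 CPM, and Fabp4 at 164 and 53.9 CPM. The zinc transporter Slc39a2 was at 107 and 20.6 CPM. Further down its leading genes stood Ctsd at 6359 and 2663 CPM, Ctsk at 266 and 98.7 CPM and Ccl6 at 8230 and 3074 CPM. Its 6 rule markers summed to 6504 CPM, the highest sum of the 8 groups.

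Sub-cluster 3 (15.7%) was led by inflammatory genes. Cxcl2, a neutrophil attractant, was at 5835 CPM in it and 681 CPM in the other members, and was above 0 in 98.3% and 50.6% of cells. Tnf was at 705 and 68.2 CPM, Cxcl1 at 704 and 63.1 CPM, Il1a at 774 and 130 CPM, Il6 at 128 and 14.3 CPM, and the growth factor Ereg at 194 and 5.13 CPM. The immediate early gene Egr1 was at 863 and 94.1 CPM, and Ier2, Zfp36 and Dusp1 of the list of dissociation and stress genes were also among its 20 leading genes. The part of tissue dissociation in this group was not tested. Over all other cells, 1 of 20 genes of that list was higher in members and 3 were lower, with a median of -0.34. Of all genes tested, 7.99% were higher and 23.3% lower, with a median of -0.22. The other cells came from the same library, so this ratio cannot show the part of dissociation.

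Sub-cluster 4 (11.1%) was led by genes of DNA replication and division, which the rule had thinned but not removed. Mcm5, of the replicative helicase, was at 143 CPM in it and 21.5 CPM in the other members, and the thymidine kinase Tk1 at 74.4 and 8.34 CPM. Clspn, a replication checkpoint gene, was above 0 in 27.6% and 2.34% of cells. Of all members, 696 had 0 of the 6 cycle genes above 0, 314 had 1 and 94 had 2.

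Sub-cluster 5 (10.1%) carried interstitial macrophage and monocyte genes. C1qa was at 510 CPM in it and 7.23 CPM in the other members, Cd74 at 2817 and 108 CPM, H2-Ab1 at 848 and 27.2 CPM, Pf4 at 317 and 9.46 CPM and the monocyte receptor Ccr2 at 148 and 16.9 CPM. C1qa was above 0 in 22.3% of its cells and 3.63% of the others, so most of its cells had none detected. Its 6 rule markers summed to 2635 CPM with a median of 3 markers above 0, and Krt79 was at 14.9 CPM in it and 208 CPM in the other members. Csf2rb was at 592 CPM in it, within the 446 to 601 CPM of the first 4 sub-clusters, and Pparg at 59.6 CPM, below their 86.8 to 108 CPM. None of its cells was a predicted doublet.

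The last 3 sub-clusters, with 149 cells (13.5% of members), were led by markers of another lineage, and predicted doublets were common in them. In sub-cluster 6 the 15 neutrophil markers summed to 44219 CPM and 29 of 89 cells (32.6%) were predicted doublets. In sub-cluster 7 Trac, a T cell receptor gene, was above 0 in 46.2% of cells and 1.14% of the other members, and 25 of 52 cells (48.1%) were predicted doublets. In sub-cluster 8 Sftpc reached 160995 CPM in 8 cells, and 2 were predicted doublets. In sub-clusters 1 to 5 only 1 cell was predicted as one.

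**Figure D4:**
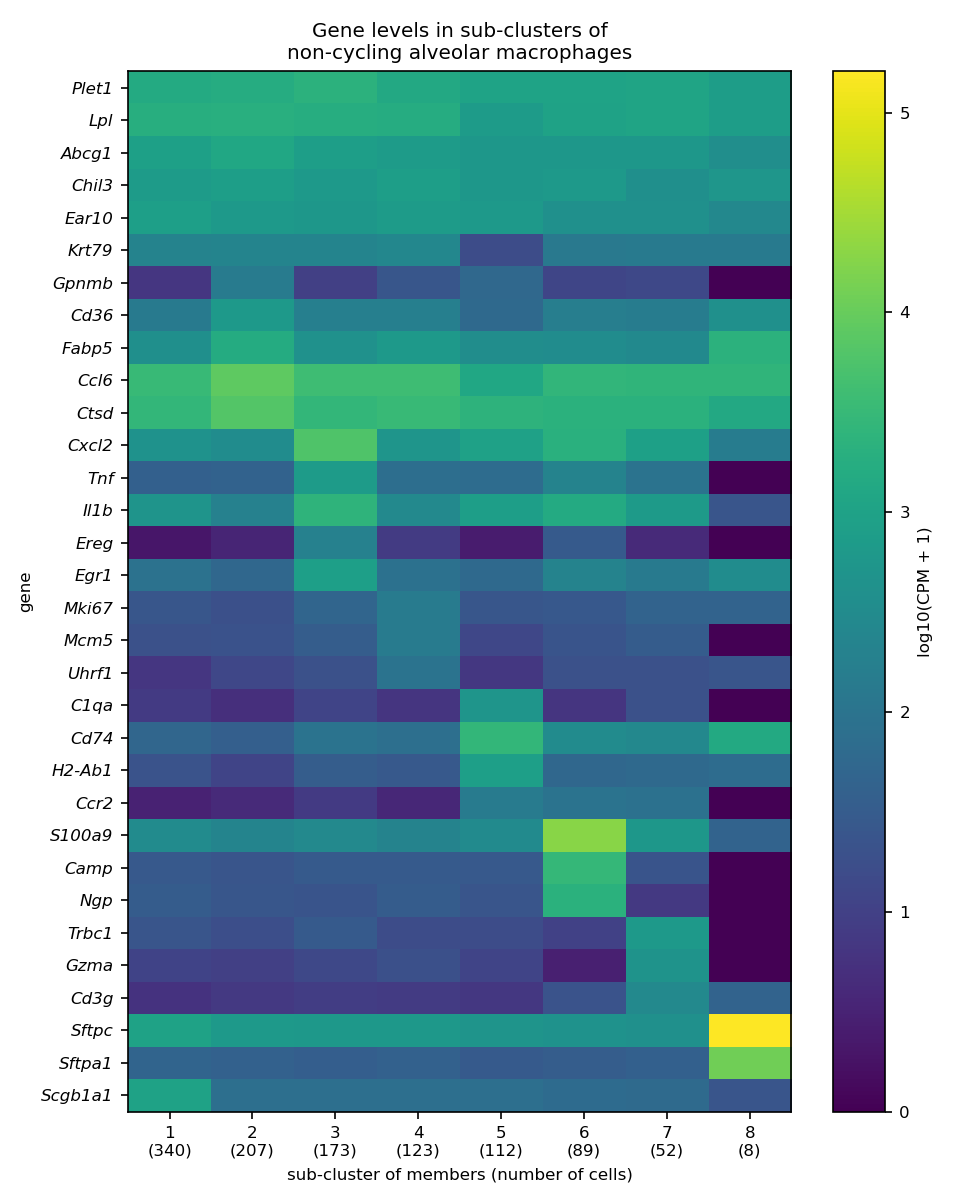
Heat map of levels, as log10(CPM + 1), of 32 genes (rows) in the 8 sub-clusters of members (columns, with cell numbers). Gpnmb and Cd36 stand out in sub-cluster 2, Cxcl2, Tnf and Ereg in 3, C1qa and Cd74 in 5, S100a9 in 6, Trbc1 in 7 and Sftpc in 8, while Plet1 is bright in all 8.

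Set beside cycling alveolar macrophages, 138 of 10807 genes were higher by size in the non-cycling cells (1.28%) and 899 lower (8.32%), with a median of -0.17. Of 44 S and G2/M phase genes, 0 were higher and 41 lower, with a median of -2.96. The 6 cycle genes of the rule are among them, and the rest follow the same split, so this is a description. Ube2c, which drives exit from mitosis, was at 19.4 CPM in non-cycling and 625 CPM in cycling cells, and Nusap1 at 9.41 and 355 CPM. Both classes met the same condition on the 6 alveolar markers, so close levels of identity genes follow in part from the gate. Of 30 further alveolar macrophage markers, 1 was higher and 0 lower, with a median of 0.17. The 1 higher gene was Sftpc, also an alveolar type 2 marker. Of 18 vacuolar ATPase genes, 0 were higher and 0 lower, with a median of 0.27, and of 39 lysosomal genes 2 were higher and 0 lower, with a median of 0.24. Marco was at 335 CPM in non-cycling and 322 CPM in cycling cells, and was above 0 in 44.2% and 54.5% of them, beside medians of 2437.5 and 3017.5 detected genes.

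Among the 12 genes highest in non-cycling over cycling cells were several markers of other cell types. Sftpc was at 1799 CPM in non-cycling and 621 CPM in cycling cells, Sftpa1 at 122 and 28.4 CPM, and Plac8 at 109 and 32.7 CPM. Without the 3 lineage-led sub-clusters, an alternative chosen after the data were seen, 70 genes in place of 138 were higher. Cycling cells were not filtered in that way. The log2 ratio of Sftpc became 0.22, that of Sftpa1 0.48 and that of Plac8 -0.68. Sftpc in the 14 classes that are neither alveolar macrophage nor epithelial ran from 257 to 1230 CPM, and the 726 CPM of members without those sub-clusters lay within that range. Scgb1a1 was at 347 and 76.2 CPM, and at 79.0 CPM in non-cycling cells without the 1 cell named above. Cd74 was at 389 and 98.6 CPM, and its log2 ratio of 1.97 became -0.68 when sub-cluster 5 was also left out. The cytokine gene Il1b was at 849 and 329 CPM with a log2 ratio of 1.36, and the late endosome gene Cd63 was at 180 and 68.4 CPM with a log2 ratio of 1.38. Without all 4 sub-clusters these were 1.26 and 1.43.

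**Figure D5:**
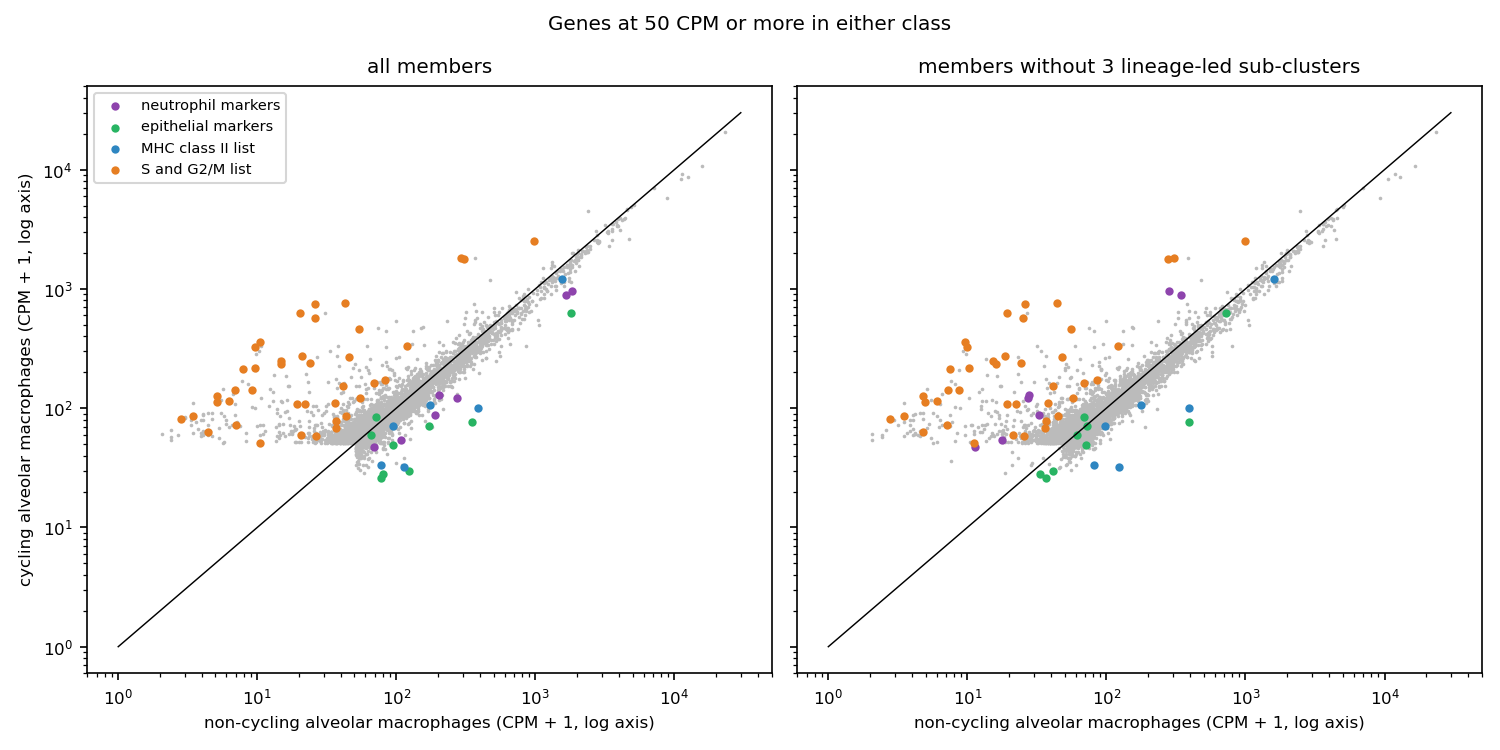
Level of each gene in non-cycling (x axis) and cycling (y axis) alveolar macrophages, CPM + 1 on log axes, for genes at 50 CPM or more in either class, with all members at left and without the 3 lineage-led sub-clusters at right. S and G2/M genes (orange) lie above the diagonal in both panels, and neutrophil markers (purple) such as S100a8, at 1668 and 888 CPM, lie below it at left and above it at right. The cycling cells are the same, unfiltered, in both panels.

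In the bulk sample of sorted PDGFRA+ cells, 33 of 35 alveolar macrophage genes looked up were listed, at a median of 1.20 CPM of reads. Plet1 was at 2.28 CPM there (exact Poisson 95% interval 2.06 to 2.52), Chil3 at 0.52 CPM and Siglecf at 0.21 CPM. Lpl and Ctsk were at 130 and 93.9 CPM and Csf1 at 92.7 CPM, so transcripts of these 3 genes were also present in that sample. The bulk and single-cell tables were normalized separately and measure different RNA, and their levels were not compared by ratio.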

How the data were processed

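One single-cell library and 1 bulk library were used. The deposited single-cell values are whole-number scores: UMIs of 17758 genes in 11306 cells, from Cell Ranger 5.0 and Seurat 3.2.2 per the submitters' processing notes. Its genome build is not given in the sources used. The scores were taken as depth-corrected because cell totals spanned 1.79-fold while detected genes ran from 709 to 3760. Raw UMI counts had been assumed in planning, so no count model or counting interval was applied to them. The deposited bulk table holds expected counts (1.71911e+08 in all), TPM and FPKM as the authors computed them, and FPKM was not used. Per the submitters' processing notes the bulk tools named are Trim Galore, HISAT2, featureCounts and DESeq2, with build mm10.

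UMIs were summed per class and scaled, genes with fewer than 20 UMIs over both classes were left out, and log2 ratios used a pseudocount of 1 CPM. With 1 sample per group there was no test. Shares have exact Clopper-Pearson intervals and bulk levels exact Poisson intervals, both at 95% and for counting error only. Members were clustered with Leiden (1000 variable genes, 15 components, 15 neighbours, resolution 0.5) in scanpy 1.11.5. Doublets were predicted with Scrublet at an expected 5%, which marked 461 cells (4.32%) of the library and 57 members, and they were kept. No barcode was duplicated. The ratio calculation was tested on simulated class sums, drawn by Poisson sampling from the pooled profile of alveolar and interstitial macrophages. Planted log2 ratios of 1 and -1 between these classes gave medians of 0.92 and -1.04. Of those genes 36% and 66% passed the size rule, against 100% of genes planted at 2 or -2. Of unchanged genes 5.02% passed it either way, 0% among those at 50 CPM or more. The draws hold no variation between cells, so these shares are no error rates for the deposited values.

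Members and lists were chosen with earlier results of these data known. Named genes were those of the rule, up to 8 per list with the largest ratio over all other cells and at least 100 UMIs, all GM-CSF and autonomic list genes, the 12 highest and 12 lowest per comparison at 50 CPM or more, 8 leading genes per sub-cluster, the 8 most abundant genes and the defining markers. Outside this rule, Apoe, Ccl2, Csf1r, Csf2, Ctsa, Ier2, Mcm5 and Zfp36 were chosen after their values were seen. Some genes that the rule names are not reported here. Car4 was moved out of the transcription factor list after the data were seen. Alternatives changed the member rule, the UMI minimum, the pseudocount, the averaging and the clustering. Leaving out the sub-clusters led by other lineages or by interstitial macrophage markers, and other cells with at least 3 markers, were added after the data were seen. Computation used python 3.11.15, numpy 2.4.6, pandas 2.3.3, scipy 1.17.1 and matplotlib 3.10.9.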

Additional observations from a re-analysis of the deposited data

How the results depend on the processing

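No paired analysis was possible because each group had 1 sample. Counts by size depended on the treatment of low genes. With a minimum of 100 UMIs, 991 genes were higher and 452 lower over interstitial macrophages, 1600 and 539 over classical monocytes, and 60 and 455 over cycling alveolar macrophages. With a minimum of 1 UMI, 1859 were lower over interstitial macrophages and 305 higher over cycling cells. With a pseudocount of 10 CPM, 721 were higher and 1269 lower over all other cells, 667 and 573 over interstitial macrophages, 1011 and 506 over monocytes, and 29 and 422 over cycling cells. Without the 3 lineage-led sub-clusters 70 genes were higher over cycling cells, and 59 also without sub-cluster 5. Requiring 0 cycle genes left 696 members, and resolution 1 gave 13 sub-clusters.

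Some log2 ratios over cycling cells reversed. Scgb1a1 was at -0.0017 with mitochondrial genes limited to 5%. Without the lineage-led sub-clusters Ifitm3 was at -0.14, Plac8 at -0.68 and Thbs1 at -0.25. Also without sub-cluster 5, Cd74 was at -0.68, H2-Ab1 at -0.48, Ifitm3 at -0.60, Plac8 at -0.86 and Thbs1 at -0.56. These settings leave out cells that carry those genes. The sub-clusters were removed from the members only. The 264 cycling cells were kept whole, with 13 predicted doublets and a neutrophil marker sum of 2380 CPM. The other reasons for changes were not tested. Of 368 ratios of named genes, a pseudocount of 10 CPM moved 162. Interstitial macrophages were 105 cells, which limits genes of low level there.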
